A study of Mus musculus with 2 samples.

Results

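The DEAD and DEAH box RNA helicases are enzymes that bind RNA, hydrolyse ATP and unwind duplexes or strip proteins from RNA. They were taken here as the genes whose symbols are Ddx or Dhx followed by a number, without Ddx3y on the Y chromosome. Of the 32285 genes listed in the files, 53 carried such a symbol. A mean of at least 10 CPM (a gene's share of the molecules captured in a library's cells, scaled to the same total in both) over the libraries was reached by 47 of them, among 8063 genes of all kinds. The symbol pattern also took in Dhx58os, an antisense transcript and not a helicase gene, which had 4 molecules in control and 0 in sonKD.

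Messenger RNA was profiled cell by cell in E14, a mouse embryonic stem cell line of 129/Ola background, kept on gelatin in serum with leukaemia inhibitory factor. The cells that received a control small interfering RNA (siRNA) are called control, and those that received siRNA against Son are called sonKD. Son encodes a large RNA-binding protein of nuclear speckles that takes part in splicing. They were transfected with Lipofectamine 2000 a day after seeding, harvested 24 hours later, frozen at -80C, thawed, sorted for exclusion of the dye 7-AAD and barcoded with 10x Genomics 3' chemistry. With 1 library per siRNA and no replicates, no test was made, and the siRNA and the library cannot be told apart. Intervals in brackets are at 95% and cover counting error only.

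DEAD and DEAH box proteins share a core of paired RecA-like domains with short conserved motifs, and the families are named after the residues of motif II, which takes part in ATP hydrolysis. DEAD box members mostly pry apart short duplexes locally, whereas DEAH box members move along RNA, often switched on by partner proteins with a G-patch. Both act in nearly every step of RNA life, from splicing and export to ribosome assembly, translation and decay, and dividing stem cells use ribosome assembly and splicing heavily.

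Motif II was located in the coding sequence of 50 of the 52 helicase genes, from GENCODE M21 transcripts on the GRCm38 build. Its 12 bases coded for DEAD in 27 genes, for DEAH in 9 and for neither in 14. None was found in Ddx60 and Dhx32. The symbol does not always follow the motif: Ddx11 carries the DEAH codons. The stretches below are 48 bases of coding sequence read 5′ to 3′, with the motif II codons in capitals. The opening set holds genes with DEAD codons at both ends of the range of ratios, the next those with DEAH codons, and the last pairs of close relatives with neither.
Ddx56, chr11:6266559-6266570, minus strand, exon 4 of 14: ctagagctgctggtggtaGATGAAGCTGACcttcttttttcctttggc
Ddx49, chr8:70297301-70297312, minus strand, exon 5 of 13: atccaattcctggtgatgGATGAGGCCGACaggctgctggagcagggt
Ddx41, chr13:55533056-55533067, minus strand, exon 10 of 17: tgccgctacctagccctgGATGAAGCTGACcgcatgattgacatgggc
Ddx3x, chrX:13289408-13289419, plus strand, exon 11 of 17: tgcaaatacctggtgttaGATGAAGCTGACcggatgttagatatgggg
Ddx18, chr1:121561339-121561350, minus strand, exon 6 of 13: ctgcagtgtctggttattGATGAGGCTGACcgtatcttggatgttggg
Ddx59, chr1:136424879-136432317, plus strand, split by an intron: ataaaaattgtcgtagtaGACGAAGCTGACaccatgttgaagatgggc
Dhx8, chr11:101752140-101752151, plus strand, exon 14 of 23: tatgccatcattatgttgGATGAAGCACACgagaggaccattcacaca
Dhx16, chr17:35885508-35885519, plus strand, exon 10 of 20: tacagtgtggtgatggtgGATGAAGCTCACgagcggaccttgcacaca
Ddx11, chr17:66138174-66138185, plus strand, exon 10 of 27: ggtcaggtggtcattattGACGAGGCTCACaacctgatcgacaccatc
Ddx39, chr8:83721110-83721121, plus strand, exon 5 of 12: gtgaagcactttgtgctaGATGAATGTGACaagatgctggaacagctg
Ddx39b, chr17:35247090-35247101, plus strand, exon 4 of 10: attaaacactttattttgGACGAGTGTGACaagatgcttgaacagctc
Ddx21, chr10:62591881-62591892, minus strand, exon 6 of 15: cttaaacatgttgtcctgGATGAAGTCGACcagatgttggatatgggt
Ddx50, chr10:62640511-62640522, minus strand, exon 6 of 15: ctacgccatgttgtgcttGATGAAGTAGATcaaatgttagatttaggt

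Cells were barcodes with 2500 or more UMIs (unique molecular identifiers, each marking 1 captured molecule) and 1000 or more genes, of whose UMIs no more than 10% were mitochondrial. This left 4978 cells in control and 2731 in sonKD, which shared 2 barcodes. Median depth was 7737.5 UMIs per cell in control and 11612 in sonKD. More than 10% mitochondrial UMIs removed 11.2% (10.3 to 12) of the barcodes of cell depth in control and 27.9% (26.5 to 29.3) in sonKD. Ribosomal protein genes took 20.7% and 24.1% of the UMIs. The part of these differences in the ratios below was not tested beyond the strata and scalings given. Son itself stood at 169 CPM in control and 106 in sonKD, or 62.7% of control. The 8 stem cell markers examined were all present, at 134 CPM or more each in control, and summed to 8456 and 9219 CPM. Of these, 6 were lower in sonKD, with Pou5f1 at 83.0% and Nanog at 90.0% of control, while Dppa5a stood at 5027 and 6075 CPM. Markers of fibroblasts, mesoderm, neural cells, primitive endoderm and trophoblast summed to at most 15.4 CPM per list in either library, with no UMI of Col3a1, Postn, Lum or Elf5.

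As a family the helicase genes were slightly lower in sonKD, by about as much as other genes. All 53 together held 4779 CPM in control and 4407 in sonKD, a log2 ratio of sonKD over control of -0.12 (-0.13 to -0.11). Over the 47 genes at 10 CPM or more, the median log2 ratio was -0.13, against -0.12 over all 8063 genes. The ratio was below 0 for 37 of the 47, or 78.7%, against 74.9% of all genes. Scaled by TMM factors, which are set on genes in the middle of the range, 27 of 47 were below 0, against 56.6% of all genes. Without mitochondrial and ribosomal protein genes in the total, 28 of 48 were, against 59.7% of all genes. Single genes ranged from -0.56 for Ddx56 to 0.36 for Ddx18.

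UMIs are counted from 3' ends and were not divided by transcript length, so levels are not ranked between genes. Genes were singled out by size, since there is no test: a level in sonKD of at most 0.8 times control, or as large a step upward, which is a log2 ratio beyond 0.32 in either direction. Ddx56, Ddx49, Ddx11, Ddx41, Ddx3x, Ddx55 and Ddx54 lay past it on the low side. These 7 are 14.9% of the 47, against 10.2% of all genes. Ddx18 alone lay past it on the high side, which is 2.13% of the 47, against 3.5% of all genes. The share called lower among the called was 87.5% for helicase genes and 74.4% for all genes. That balance moved with the scaling. Under TMM factors, 6 helicase genes lay lower and 2 higher, a lower share of 75%, and the share among all genes was 45.2%. Without mitochondrial and ribosomal protein genes in the total, 7 of 48 lay lower, Ddx51 among them, and 2 higher, or 77.8%, against 50.9% among all genes. Ddx59 was the gene added above under both scalings, at 0.38 and 0.36, and Ddx54 left the lower set under both, at -0.24 and -0.25. Among cells of 5000 to 10000 UMIs alone, 13 of 46 lay lower and 1 higher, against 24.2% and 7.39% of all genes.

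**Figure D1:**
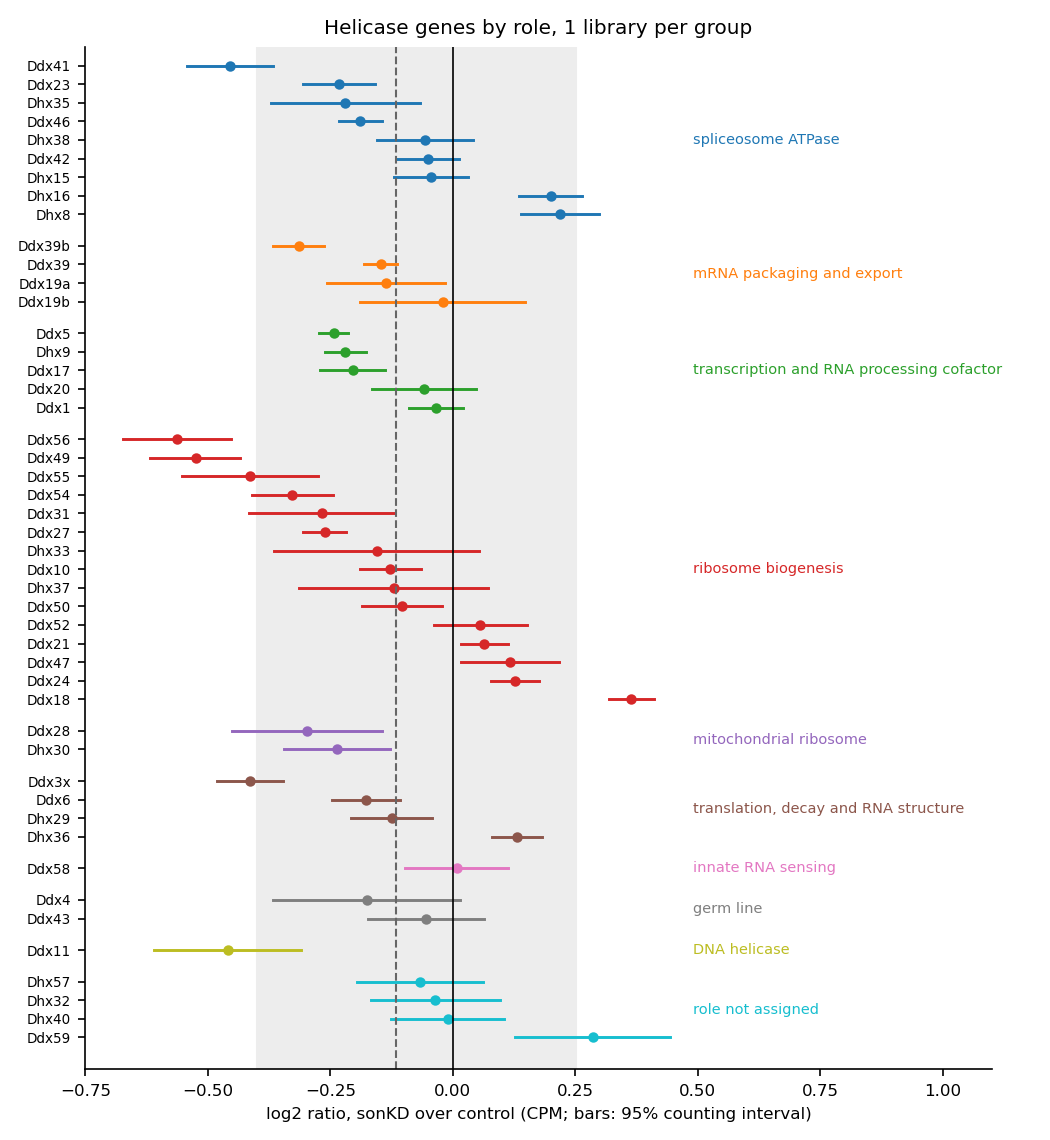
Log2 ratio of sonKD over control for the 47 helicase genes at 10 CPM or more, in blocks by role. Points are ratios, bars are 95% counting intervals, the grey band spans the 5th to 95th percentile of all 8063 genes and the dashed line is their median of -0.12. Ddx56 at -0.56 is leftmost and Ddx18 at 0.36 rightmost.

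Ribosome assembly has the most members, 16 genes with 15 at 10 CPM or more, and it held both ends of the range. Of the 15, 10 were below 0, against 74.9% of all genes. Past the threshold lay 4 on the low side and 1 on the high side, against 10.2% and 3.5% of all genes. The median of the 15 was -0.13. Their summed level was 1357 CPM in control and 1318 in sonKD. Ddx56, needed for the large ribosomal subunit, had 1951 UMIs or 47.7 CPM (45.6 to 49.9) in control and 1034 UMIs or 32.3 CPM (30.3 to 34.3) in sonKD. Its log2 ratio of -0.56 (-0.67 to -0.45) was the lowest of the 47. Ddx49, whose yeast counterpart serves the small subunit, had 2731 UMIs or 66.8 CPM (64.3 to 69.3) in control and 1486 UMIs or 46.4 CPM (44.1 to 48.8) in sonKD. The log2 ratio of Ddx49 was -0.53 (-0.62 to -0.43). For both genes the intervals of the libraries lay well apart.

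Ddx55, Ddx54, Ddx31, Ddx27 and Ddx51 are tied to large subunit assembly, as is Ddx24, which lay above control and is given below. Ddx55 stood at 28.0 CPM in control and 21 in sonKD, a log2 ratio of -0.41 (-0.55 to -0.28). Ddx54 stood at 76.0 and 60.6 CPM, or -0.33 (-0.41 to -0.25), just past the threshold. Ddx31 stood at 23.0 and 19.1 CPM, or -0.27. All 3 intervals lie below 0. Ddx27 had 10507 UMIs or 257 CPM (252 to 262) in control and 6866 UMIs or 214 CPM (209 to 219) in sonKD. That is a log2 ratio of -0.26 (-0.31 to -0.22). Ddx51 falls below the 10 CPM minimum, with a mean of 8.25 CPM over the libraries. It had 409 UMIs or 10.0 CPM in control and 208 UMIs or 6.49 CPM in sonKD, or -0.62 (-0.87 to -0.38). The nearest gene inside the minimum, Dhx33, a helicase tied to ribosomal RNA transcription, stood at 11.1 and 9.99 CPM.

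Ddx18 went the other way. This nucleolar helicase of pre-ribosomes had 7415 UMIs or 181 CPM (177 to 185) in control and 7476 UMIs or 233 CPM (228 to 239) in sonKD. Its log2 ratio was 0.36 (0.32 to 0.41), the highest of the 47. Much of its 3' end is not unique in the annotation: 57.2% of the 31-base words in its last 500 bases also occur in other genes. The gene that shares the most of them is Gm16433. That gene is not among those listed in the files, and how reads of such sequence were placed is not given in the sources used here. Without Ddx18 the median of the other 46 was -0.13.

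The remaining nucleolar members lay nearer to 0. Ddx24, a large subunit factor, stood at 180 and 197 CPM, or 0.13 (0.08 to 0.18). Ddx47, of small subunit processing, stood at 43.7 and 47.4 CPM, or 0.12 (0.02 to 0.22). Ddx52, also of the small subunit, stood at 49.0 and 50.9 CPM, or 0.06 (-0.04 to 0.15), an interval that includes 0. Ddx10 and Dhx37, both of small subunit processing, lay at -0.13 and -0.12, close to the median of all genes. Ddx47, Ddx52 and Ddx21 lay below 0 in cells of 5000 to 10000 UMIs, where the median of all genes was -0.16. The intervals of Ddx47 and Ddx52 in those cells include 0.

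Ddx21 and Ddx50 are nucleolar relatives that lie next to each other on chromosome 10, with coding sequences 72.0% identical over 2136 aligned bases. Ddx21, which couples RNA polymerase I transcription to ribosomal RNA processing, had 7726 UMIs or 189 CPM (185 to 193) in control and 6326 UMIs or 197 CPM (193 to 202) in sonKD. That is a log2 ratio of 0.06 (0.02 to 0.11). Ddx50 had 2853 UMIs or 69.8 CPM (67.2 to 72.4) in control and 2080 UMIs or 64.9 CPM (62.2 to 67.8) in sonKD, or -0.10 (-0.19 to -0.02). The Ddx50 share of their joint UMIs was 27.0% (26.1 to 27.8) in control and 24.7% (23.8 to 25.7) in sonKD. In cells of 5000 to 10000 UMIs that difference was not seen: Ddx21 lay at -0.10 and Ddx50 at -0.09, and the Ddx50 share was 27.1% (26.0 to 28.1) and 27.2% (24.8 to 29.7).

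**Figure D2:**
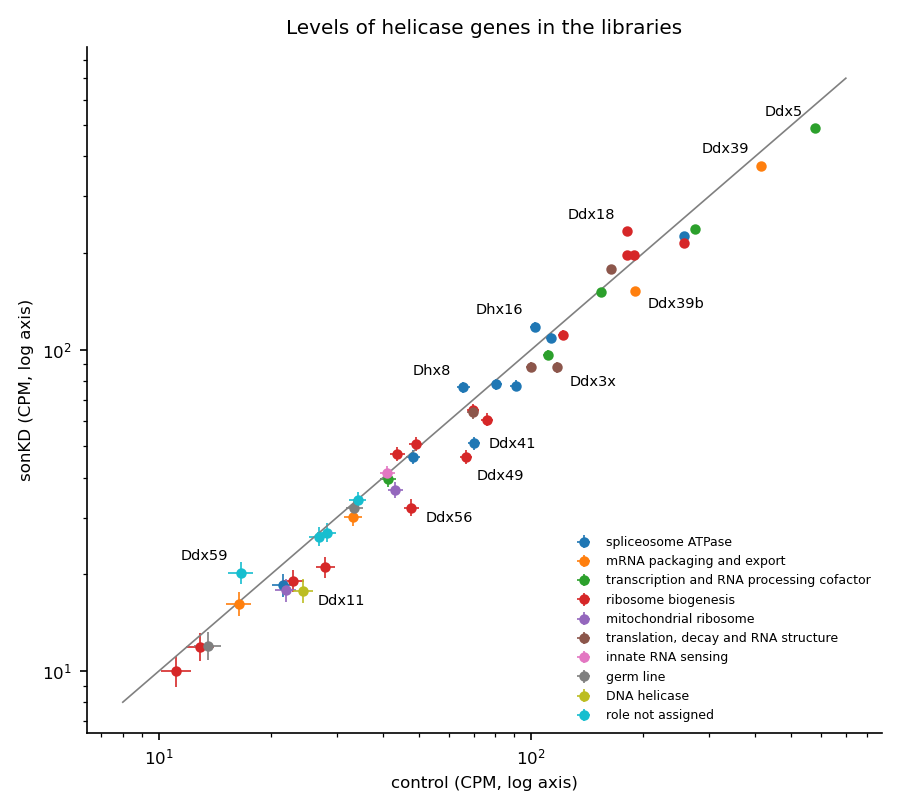
CPM of the 47 helicase genes in control (x, log axis) and sonKD (y, log axis), coloured by role, with 95% Poisson intervals that are often smaller than the point. The line marks equal CPM; Ddx56 at 47.7 and 32.3 CPM lies below it and Ddx18 at 181 and 233 CPM above it.

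The spliceosome draws on 9 of these ATPases, many of which drive a single rearrangement. Of the 9, 7 were below 0, against 74.9% of all genes, and the median was -0.06. Among the 7, Ddx42, Dhx38 and Dhx15 were above 0 under both other scalings. Ddx41 was the member past the threshold. It is found in catalytic spliceosomes and is also described as a sensor of nucleic acids. It had 2865 UMIs or 70.0 CPM (67.5 to 72.7) in control and 1637 UMIs or 51.1 CPM (48.7 to 53.6) in sonKD. Its log2 ratio was -0.45 (-0.54 to -0.37), the lowest of the 9.

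The helicases of early spliceosome assembly ranged from -0.23 to -0.05. Ddx46, which places the U2 particle on the branch site, had 10548 UMIs or 258 CPM (253 to 263) in control and 7247 UMIs or 226 CPM (221 to 232) in sonKD, or -0.19 (-0.23 to -0.15). Ddx23, which releases U1 from the 5' splice site, stood at 90.8 and 77.3 CPM, or -0.23 (-0.31 to -0.16). Ddx42, another partner of U2, stood at 113 and 109 CPM, or -0.05 (-0.11 to 0.01).

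Of the DEAH box members, which act from activation to disassembly, a pair lay above control. Dhx16, which remodels the spliceosome just before catalysis, had 4198 UMIs or 103 CPM (99.6 to 106) in control and 3775 UMIs or 118 CPM (114 to 122) in sonKD. Its log2 ratio was 0.20 (0.14 to 0.26). Dhx8, which releases the spliced mRNA, had 2690 UMIs or 65.8 CPM (63.3 to 68.3) in control and 2450 UMIs or 76.5 CPM (73.5 to 79.6) in sonKD, or 0.22 (0.14 to 0.30). Both stayed above 0 under each of the 8 alternatives run for single genes, with ranges of 0.18 to 0.31 for Dhx16 and 0.06 to 0.31 for Dhx8.

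The other DEAH box ATPases of splicing were near or below 0. Dhx38, which acts between the catalytic steps, stood at 48.2 and 46.4 CPM, or -0.06 (-0.15 to 0.04). Dhx15, which takes the spent spliceosome apart, stood at 80.6 and 78.1 CPM, or -0.04 (-0.12 to 0.03). Dhx35, a component of catalytic spliceosomes, stood at 21.5 and 18.5 CPM, or -0.22 (-0.37 to -0.07). The intervals of Dhx38 and Dhx15 include 0 over all cells. In cells of 5000 to 10000 UMIs they do not: Dhx38 lay at -0.26 (-0.48 to -0.05) there and Dhx15 at -0.19 (-0.35 to -0.03). Both intervals include the median of all genes in those cells, which was -0.16. In cells of 10000 UMIs or more the intervals again include 0, at -0.12 (-0.26 to 0.02) for Dhx38 and -0.06 (-0.16 to 0.05) for Dhx15.

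All 4 members of mRNA packaging and export were below 0, against 74.9% of all genes, though Ddx19b was above 0 under both other scalings. Their median of -0.14 is close to the -0.12 of all genes. Ddx39b, also called UAP56, loads the TREX export complex onto mRNA, and Ddx39 is its close relative. Their coding sequences are 81.2% identical over 1277 aligned bases. Ddx39 had 16956 UMIs or 415 CPM (408 to 421) in control and 11991 UMIs or 374 CPM (368 to 381) in sonKD, or -0.15 (-0.18 to -0.11). Ddx39b had 7755 UMIs or 190 CPM (185 to 194) in control and 4883 UMIs or 152 CPM (148 to 157) in sonKD, or -0.31 (-0.37 to -0.26). The intervals of these ratios did not overlap, and the Ddx39b share of the pair's UMIs was 31.4% (30.8 to 32.0) in control and 28.9% (28.3 to 29.6) in sonKD.

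Ddx19a and Ddx19b, which strip export factors from mRNA at the nuclear pore, lie close together on chromosome 8 and are 93.6% identical over 1434 coding bases. Ddx19a had 1358 UMIs or 33.2 CPM (31.5 to 35.0) in control and 968 UMIs or 30.2 CPM (28.3 to 32.2) in sonKD, or -0.14 (-0.26 to -0.02). Ddx19b had 671 UMIs or 16.4 CPM (15.2 to 17.7) in control and 518 UMIs or 16.2 CPM (14.8 to 17.6) in sonKD, or -0.02 (-0.19 to 0.15). The Ddx19b share of the pair was 33.1% (31 to 35.2) and 34.9% (32.4 to 37.3), intervals that overlap. Their last 500 transcript bases shared no 31-base word.

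The 5 cofactors of transcription and RNA processing were all below 0, against 74.9% of all genes, with a median of -0.20, though Ddx20 and Ddx1 were above 0 under both other scalings. Ddx5 and its relative Ddx17 assist transcription factors and the microRNA processor Drosha, and their coding sequences are 71.2% identical over 1804 aligned bases. Ddx5 had 23697 UMIs or 579 CPM (572 to 587) in control and 15678 or 489 CPM (482 to 497) in sonKD. That is a log2 ratio of -0.24 (-0.27 to -0.21). Ddx17 had 4526 UMIs or 111 CPM (107 to 114) in control and 3076 UMIs or 96.0 CPM (92.7 to 99.5) in sonKD, or -0.20 (-0.27 to -0.14). The intervals of the pair overlap, and Ddx17 made up 16.0% (15.6 to 16.5) of their UMIs in control and 16.4% (15.9 to 16.9) in sonKD.

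Dhx9, also called RNA helicase A, resolves structured RNA bound to chromatin. It had 11287 UMIs or 276 CPM (271 to 281) in control and 7591 UMIs or 237 CPM (232 to 242) in sonKD, or -0.22 (-0.26 to -0.18). Ddx20, part of the SMN complex that assembles small nuclear particles, stood at 41.3 and 39.6 CPM, or -0.06 (-0.16 to 0.05). Ddx1, a component of the tRNA ligase complex, stood at 154 and 151 CPM, or -0.03 (-0.09 to 0.02). The intervals of Ddx20 and Ddx1 include 0, though in cells of 5000 to 10000 UMIs Ddx1 lay at -0.16 (-0.28 to -0.05). The median of all genes in those cells was also -0.16.

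In translation, decay and RNA structure, 4 of 5 members reached 10 CPM, and their median was -0.15. Ddx3x, which helps ribosomes scan structured 5' leaders, lay on the X chromosome and had 4802 UMIs or 117 CPM (114 to 121) in control and 2821 UMIs or 88.1 CPM (84.8 to 91.4) in sonKD. Its log2 ratio of -0.41 (-0.48 to -0.35) was the lowest of the group. Ddx6, a repressor of translation in cytoplasmic bodies, stood at 99.8 and 88.3 CPM, or -0.18 (-0.25 to -0.11). Dhx29, which binds the small subunit during scanning, stood at 69.6 and 63.8 CPM, or -0.12 (-0.21 to -0.04).

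Dhx36, which unwinds G-quadruplexes, was the member of that group above control. It had 6683 UMIs or 163 CPM (159 to 167) in control and 5728 UMIs or 179 CPM (174 to 184) in sonKD, or 0.13 (0.08 to 0.18). Dhx34, a factor of nonsense-mediated decay, was under the minimum at 3.86 and 3.09 CPM, with an interval of -0.70 to 0.05.

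Both helicases of mitochondrial ribosome assembly were lower in sonKD, as were 74.9% of all genes. Ddx28, a gene of 1 exon, stood at 21.9 and 17.8 CPM, or -0.30 (-0.45 to -0.14). Dhx30 stood at 43.1 and 36.6 CPM, or -0.24 (-0.34 to -0.13). Neither passed the threshold.

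Ddx11, a DNA helicase of sister chromatid cohesion, had 999 UMIs or 24.4 CPM (22.9 to 26.0) in control and 569 UMIs or 17.8 CPM (16.3 to 19.3) in sonKD. Its log2 ratio was -0.46 (-0.61 to -0.31), the lowest among genes with DEAH codons. Of the 31-base words in its last 500 bases, 13.8% also occur in other genes. Shprh, which shares the most of them, stood at 39.8 and 35.1 CPM.

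The germ line and innate sensing members all had intervals that include 0 over all cells, though in cells of 5000 to 10000 UMIs those of Ddx43 at -0.27 (-0.53 to -0.03) and Ddx58 at -0.24 (-0.47 to -0.01) did not. Both of the latter include the median of all genes in those cells, which was -0.16. In cells of 10000 UMIs or more the intervals again include 0, at -0.05 (-0.22 to 0.12) for Ddx43 and -0.07 (-0.22 to 0.07) for Ddx58. Ddx4, the germ cell factor Vasa, stood at 13.5 and 12 CPM, or -0.18 (-0.37 to 0.01). Ddx43 stood at 33.5 and 32.2 CPM, or -0.05 (-0.17 to 0.06) and above 0 under both other scalings, and Ddx25, of spermatids, was under the minimum at 6.67 and 6.99 CPM. Ddx58, which encodes the viral RNA sensor RIG-I, stood at 41.1 and 41.3 CPM, or 0.01 (-0.10 to 0.11). The sensors Dhx58 and Ddx60 were under the minimum, with 51 and 35 UMIs and with 14 and 13 UMIs.

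No role was assigned to the other 4 genes. Ddx59 had 678 UMIs or 16.6 CPM (15.4 to 17.9) in control and 647 UMIs or 20.2 CPM (18.7 to 21.8) in sonKD, or 0.29 (0.13 to 0.44). It was the gene nearest to the threshold without passing it on the high side, as Ddx39b at -0.31 was on the low side. Dhx57, Dhx32 and Dhx40 lay at -0.07, -0.04 and -0.01, each with an interval that includes 0, and each above 0 under both other scalings.

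By the codons of motif II, the 25 genes with DEAD had a median log2 ratio of -0.18, with 6 past the threshold on the low side and 1 on the high side. The 9 with DEAH had a median of -0.06 with 1 lower, and the 12 with neither had a median of -0.11 with none past the threshold in either direction. By symbol, the 33 Ddx genes had a median of -0.18 with 7 lower and 1 higher, and none of the 14 Dhx genes, whose median was -0.06, passed the threshold. Of all genes, 10.2% lay past the threshold on the low side and 3.5% on the high side. Whether the groups differ was not tested.

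The ratio hardly followed gene structure within the family. Across the 47 genes, Spearman's rho of the log2 ratio was 0.10 with transcript length and -0.06 with exon number. Across 8061 genes of all kinds with an annotated transcript, rho was -0.28 with transcript length and -0.29 with exon number. Helicase genes had a median of 17 exons and 3351 bases, against 9 exons and 2940 bases for all genes. These are descriptions across genes of 1 pair of libraries, and genes are not independent replicates.

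Shared sequence and overlapping genes touch some of these values. At the 3' end, where this chemistry counts, 37 of the 47 genes shared no 31-base word of their last 500 bases with another gene. Besides Ddx18 and Ddx11, the share of words found in other genes reached 21.7% in Ddx39, 13% in Ddx55 and 12.1% in Ddx50. The genes that share the most of these words are Olfr1178, Ilf2 and Gm8228, in that order. A gene on the other strand overlapped 13 of the 47. Homer3, opposite Ddx49, stood at 13.9 and 13.8 CPM, and Adgre5, opposite Ddx39, at 24.9 and 26.2 CPM. Among the partners that exceeded their helicase were Smarcc1, opposite Dhx30, at 292 and 263 CPM and Bccip, opposite Dhx32, at 77.6 and 90.6 CPM. Kdelr3, opposite Ddx17, stood at 42.1 and 45.3 CPM, and Dus2, opposite Ddx28, at 29.8 and 27.7 CPM. Whether counting used strand is not given in the sources used here, so reads of such partners may not be told apart.

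Depth per cell differed between the libraries, so the ratios were also taken within cells of like depth. Cells of 2500 to 5000 UMIs numbered 514 in control and 172 in sonKD, those of 5000 to 10000 UMIs 3475 and 675, and deeper cells 989 and 1884. The median log2 ratio of the 47 genes was 0.04, -0.24 and -0.15 in the 3 strata, against 0.02, -0.16 and -0.16 over all genes. In the deeper pair of strata, 35 of the 47 were below 0 in both, 6 above in both and 6 mixed. No such count over all genes stands beside these, and 74.9% of all genes were below 0 over all cells. The genes above 0 in all 3 strata were Ddx18, Ddx24, Ddx59, Dhx16, Dhx36 and Dhx8. Of the 7 past the threshold on the low side, 5 were below 0 in all 3.

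The exceptions were Ddx11 and Ddx55 in the shallowest cells. Ddx11 lay at 0.32 (-0.83 to 1.37) there, from 28 UMIs in control and 11 in sonKD, and at -0.62 and -0.61 in the deeper strata. Ddx55 lay at 0.04 (-0.72 to 0.75), then at -0.26 (-0.55 to 0.01) and -0.47. Both intervals in the shallow cells are wide and include 0. Ddx49 was lower in each stratum, at -0.64, -0.85 and -0.56, and Ddx18 higher, at 0.78, 0.25 and 0.37.

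**Figure D3:**
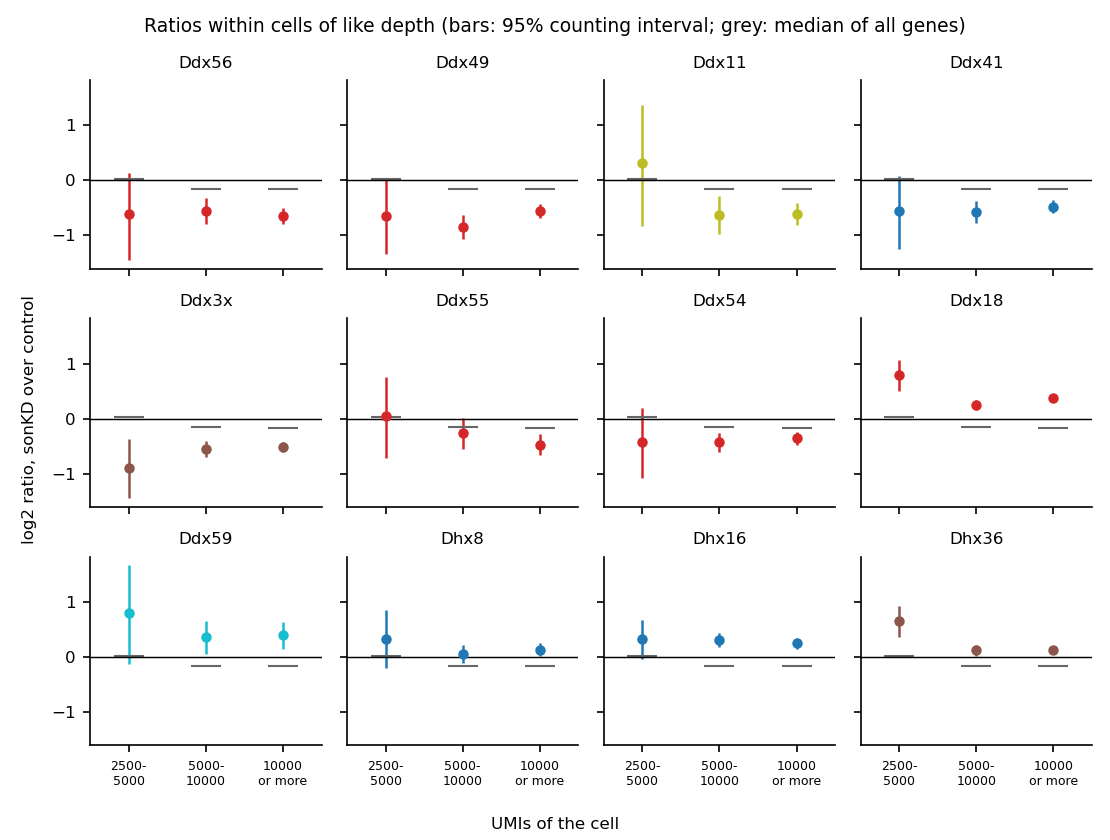
Log2 ratio of sonKD over control within cells of 2500 to 5000, 5000 to 10000 and 10000 or more UMIs, for the 7 genes past the threshold on the low side and the 5 with the highest ratios. Points carry 95% counting intervals and grey dashes are the median of all genes; Ddx18 lies above 0 in each stratum and Ddx11 at 0.32 in the shallowest.

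Phase of the cell cycle was assigned from marker scores that use no helicase gene. S phase held 49.6% of control and 48.7% of sonKD cells, and G2/M held 45.7% and 44.0%. G1 held 4.70% (4.13 to 5.33) of control and 7.21% (6.27 to 8.25) of sonKD cells. The median ratio of the helicase genes was -0.12 within S phase and -0.16 within G2/M, against -0.12 and -0.11 over all genes. In each phase 45 of the 47 kept the sign of all cells. Within G1, from 234 and 197 cells, the median was -0.10, against -0.08 over all genes. There 35 of the 47 kept the sign, and the summed log2 ratio was -0.04 (-0.10 to 0.01). G1 cells were shallower, with median depths of 4756 UMIs in control and 7417 in sonKD, against 7584.5 and 11498 in S phase. The part of depth in the G1 ratios was not tested. S and G2/M cells make up most of all cells, so the signs kept in these phases were largely fixed in advance. The sign counts by phase have no count over all genes beside them, and 74.9% of all genes were below 0 over all cells. Within the libraries, the median log2 ratio of G2/M over S of the helicase genes was -0.02 in control and -0.07 in sonKD. Over all genes it was 0.005 and 0.011. Single genes ranged from -0.34 to 0.22 in control and from -0.34 to 0.23 in sonKD. Ddx19b was lowest in control, at -0.34 (-0.57 to -0.12), against -0.18 (-0.44 to 0.08) in sonKD. Dhx37 was lowest in sonKD, at -0.34 (-0.65 to -0.04), against -0.09 (-0.35 to 0.16) in control. Ddx21 was lower in G2/M than in S, at -0.21 (-0.28 to -0.15) in control and -0.24 (-0.32 to -0.17) in sonKD. Dhx9 lay at -0.17 (-0.22 to -0.12) and -0.14 (-0.21 to -0.07). Ddx17 was higher in G2/M, at 0.14 (0.05 to 0.22) and 0.16 (0.06 to 0.27). Ddx11 lay at 0.22 (0.03 to 0.40) and 0.23 (-0.02 to 0.48).

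The barcodes of cell depth left out for over 10% mitochondrial UMIs were summed separately. In 625 such barcodes of control and 1056 of sonKD, the helicase genes summed to 4839 and 4629 CPM. Their median log2 ratio was -0.19, against -0.14 over all genes, and 36 of the 47 kept the sign seen in cells. That count too has none over all genes beside it. Ddx18 lay at 0.57 (0.42 to 0.72) in these barcodes, and Ddx56 at -0.22 (-0.68 to 0.24).

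Near-empty droplets of 100 to 500 UMIs, which mostly hold free RNA, carried less helicase RNA than cells. Their summed helicase level was 2990 CPM in control and 2562 in sonKD. The median log2 ratio of cells over droplets was 1.06 in control and 1.17 in sonKD for the helicase genes, against 0.92 and 1.03 for all genes. Dhx57 stood highest over its droplet level, at 2.49 in control and 2.51 in sonKD.

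A few members were at least as frequent in droplets as in cells in both libraries. Dhx16 lay at -0.36 (-0.43 to -0.29) in control and -0.32 (-0.40 to -0.25) in sonKD. Ddx18 lay at -0.28 (-0.34 to -0.22) and -0.23 (-0.28 to -0.18), with 220 CPM in control droplets and 274 in sonKD droplets. Ddx28 lay at -0.16 (-0.32 to 0.01) and -0.33 (-0.51 to -0.14). Ddx39 lay at -0.21 (-0.25 to -0.17) in control and at -0.01 (-0.05 to 0.03) in sonKD. Dhx16 and Ddx18 are thus among the genes above control and also among those with no excess in cells over droplets, and the part of free RNA in their ratios was not tested.

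**Figure D4:**
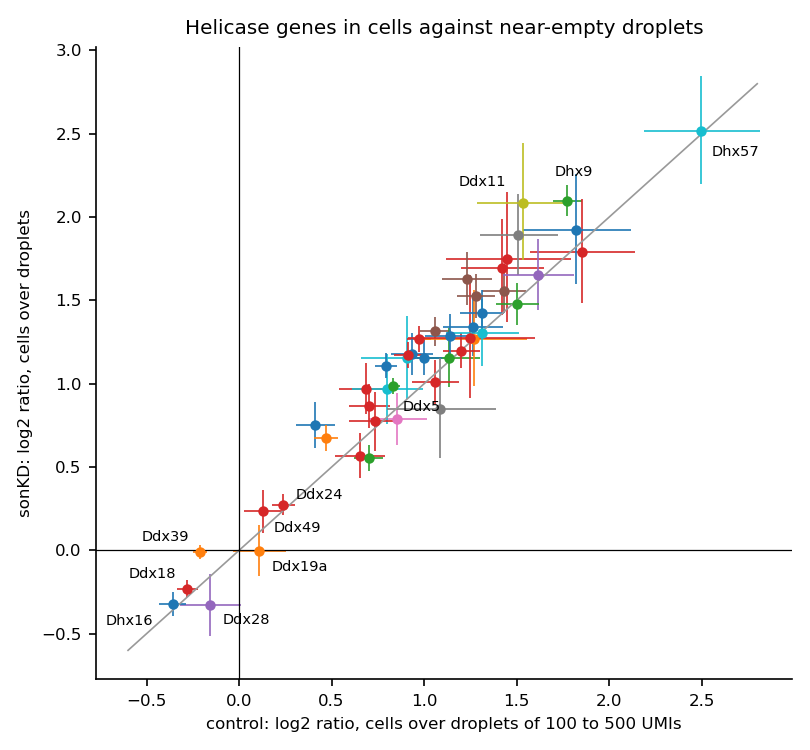
Log2 ratio of the CPM in cells over the CPM in droplets of 100 to 500 UMIs for the 47 helicase genes, in control (x) and sonKD (y), with 95% counting intervals and colours by role. The diagonal marks equal values; Dhx57 is at the upper right at 2.49 and 2.51, and Dhx16, Ddx18 and Ddx28 lie below 0 on both axes.

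Detection per cell was compared after each cell was thinned to 2500 UMIs, which left out no cell. Ddx5 had a UMI in 73.9% (72.6 to 75.1) of control and 68.0% (66.2 to 69.7) of sonKD cells. Ddx27 had one in 46.5% (45.1 to 47.9) and 37.1% (35.3 to 39.0). Ddx18 had one in 34.6% (33.3 to 35.9) and 42.3% (40.4 to 44.1). The direction of these shares is that of the CPM.

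Among the genes past the threshold, Ddx3x had a UMI in 25.2% of control and 18.9% of sonKD cells. Ddx41 had one in 16.4% and 11.2%, Ddx49 in 15.2% and 10.5%, and Ddx56 in 10.9% and 7.54%. Dhx16 had one in 23.2% (22.1 to 24.4) and 26.7% (25.0 to 28.4). Without thinning, when sonKD cells are the deeper, the shares of Ddx3x, Ddx41 and Dhx16 were larger in sonKD and those of Ddx49 and Ddx56 smaller. No cell type that lacks these genes was present to set a background for these shares. The droplet levels above are CPM within droplets and not stray UMIs per cell, so they do not supply one.

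At the depth of the thinned cells, the variance of UMIs per cell was close to that of counting alone. In thinned cells the Fano factor, the variance over the mean of UMIs per cell, which is 1 for pure counting, had a median of 1.02 in control and 1.04 in sonKD over the 27 helicase genes with at least 0.1 UMI per cell. It was 1.04 in both libraries over 3667 genes of all kinds. Ddx5 had the highest value of the family, 1.12 and 1.14. Its mean, also the highest, was only 1.43 UMIs per thinned cell in control and 1.22 in sonKD. At means this low, counting noise holds the Fano factor near 1. The values therefore cannot show how much the levels themselves varied between cells.

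Genes of 6 lists of partners and other helicases were set beside the family. Over all genes, 74.9% were below 0, 10.2% past the threshold on the low side and 3.5% on the high side, with a median of -0.12. Of the other RNA helicases, all 15 at 10 CPM or more were below 0, with a median of -0.28 and 5 past the threshold on the low side. This list is set apart by symbol, and it also holds DEAD box genes not named Ddx. These are Eif4a1 at -0.33, with 1413 CPM in control and 1120 in sonKD, Eif4a2 at -0.40 and Eif4a3 at -0.31. Eif4a3 is counted in the exon junction complex as well. Under TMM factors 14 of the 15 were below 0, against 56.6% of all genes. Skiv2l, of the cytoplasmic exosome's Ski complex, stood at 13.8 and 9.21 CPM, or -0.58 (-0.79 to -0.38). Mov10, a helicase of the Upf1 group, stood at 37.5 and 27.0 CPM, or -0.47 (-0.59 to -0.35).

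The partners that switch on DEAH box helicases carry a G-patch, as Son does. Of 18 G-patch genes, 15 were below 0, 3 lay past the threshold on the low side and none on the high side, with a median of -0.11 with or without Son. Son, the siRNA target, lay at -0.67 (-0.73 to -0.61). Cherp, a partner of the U2 particle, stood at 51.9 and 35.3 CPM, or -0.56 (-0.66 to -0.45).

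Partners of the export helicases, the TREX complex and pore factors, had 11 of 16 below 0, 2 lower past the threshold and a median of -0.15. Nup155 lay at -0.34 (-0.43 to -0.25) and Thoc3 at -0.33 (-0.40 to -0.26). The MIF4G and initiation partners had 8 of 11 below 0, none past the threshold and a median of -0.15, with Eif4b at -0.32 (-0.37 to -0.27) and Eif4g3 at 0.24 (0.14 to 0.34).

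Partners of Ddx6 in decay bodies leaned both ways. Of 16, 10 were below 0, with a median of -0.14, 1 lower past the threshold and 2 higher. The 2 were subunits of the Lsm ring that binds the 3' end of mRNA. Lsm7 stood at 144 and 203 CPM, or 0.49 (0.44 to 0.54), and Lsm3 at 119 and 162 CPM, or 0.45 (0.39 to 0.51). The exon junction complex had 3 of 7 below 0, none past the threshold and a median of 0.01, with Eif4a3, its helicase, at -0.31 (-0.35 to -0.26) and Rbm8a at -0.22 (-0.28 to -0.17).

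**Figure D5:**
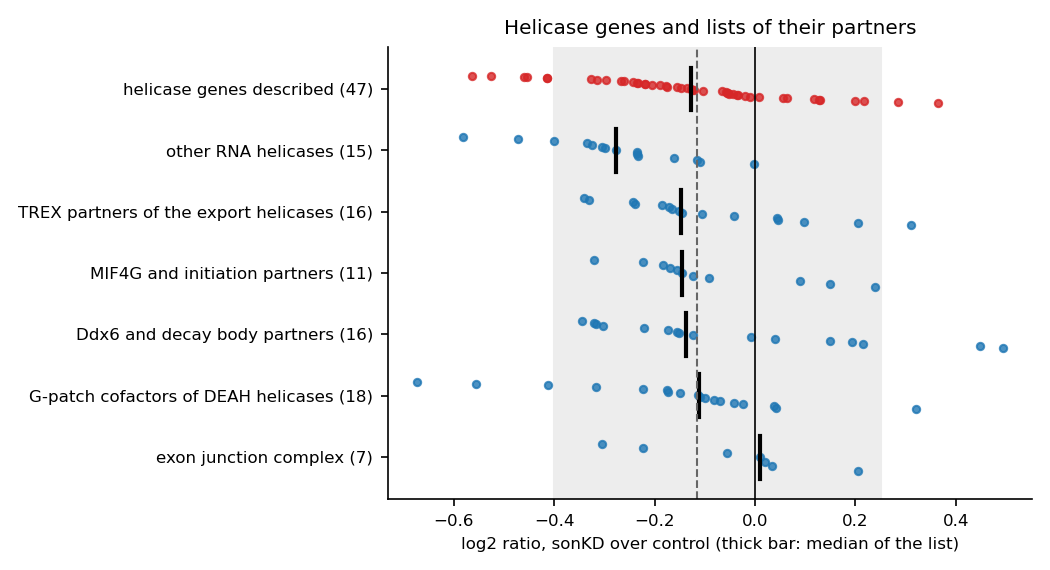
Log2 ratio of sonKD over control for the 47 helicase genes (red) and for 6 lists of partners and other helicases (blue), each point 1 gene at 10 CPM or more, with the number of genes in brackets. Thick bars are list medians, the dashed line is the median of all genes at -0.12 and the band its 5th to 95th percentile; the other RNA helicases have a median of -0.28.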

How the data were processed

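The deposited files give raw counts of UMIs for each gene in each barcode of 1 control and 1 sonKD library, made by the authors with Cell Ranger 7.1.0 per the file headers. The build was mm10 per the submitters' processing notes, and the annotation, strand and intronic read settings are not given in the sources used here. The labels name different sequencers in different fields, so none is given. The matrices list 1408944 barcodes with 71046373 UMIs in control and 1400093 with 60352438 in sonKD.

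Cells needed 2500 or more UMIs, 1000 or more genes and no more than 10% of UMIs from mitochondrial genes. Doublets were kept: Scrublet (scanpy 1.11.5) called 0.0603% of control and 0.0366% of sonKD cells, too few for a working call. Counts were summed over cells and divided by the library sum to give CPM, with totals of 40902904 and 32032551 UMIs in cells. Log2 ratios are sonKD over control with no pseudocount, and counts under 3 were set to 3. Intervals (scipy 1.17.1) are exact Poisson for CPM, exact conditional binomial for ratios and Clopper-Pearson for shares. The ratio code was tested on simulated data. No p-value was computed, since cells of 1 library are not replicates. The planned protein comparison was made on coding sequence instead. edgeR 4.0.16 supplied TMM factors for 1 alternative scaling. Other alternatives changed the cell filters, the level minimum, the pseudocount, the weighting of cells and the thinning.

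Gene positions, exons and sequences come from GENCODE M21 on GRCm38, in which 8061 of the 8063 genes were found. The 3' end check used 31-base words of the last 500 transcript bases. Every member at 10 CPM or more was named. UMIs and intervals were given for the 5 highest and 5 lowest ratios, the 5 highest CPM and 4 related pairs, and of each partner list the 2 genes farthest from 0 were named. Other genes named, among them the neighbours and Ddx51, were chosen after their values were seen. The helicase genes, roles and partner lists were chosen with earlier results of these data known.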

Additional observations from a re-analysis of the deposited data

How the results depend on the processing

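No paired analysis was possible because each group holds 1 sample. Of the 47 helicase genes, 32 kept the sign of their log2 ratio under the 8 alternatives run for single genes, 26 below 0 and 6 above. No like count over all genes is given, and 74.9% of all genes were below 0 under the main setting. In cells of 5000 to 10000 UMIs, Ddx47 lay at -0.024 (-0.23 to 0.18) and Ddx21 at -0.10 (-0.20 to -0.0008). Both are above 0 over all cells, and the interval of Ddx47 in these cells includes 0.

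Under TMM factors the family median was -0.038 and its summed log2 ratio -0.026, with 2 genes higher past the threshold. List medians there were -0.047 for Ddx6 partners, -0.056 for MIF4G partners, -0.058 for TREX partners, 0.10 for the exon junction complex and -0.19 for other helicases. Without mitochondrial and ribosomal protein genes the summed ratio was -0.043, with 2 genes higher, the exon junction complex at 0.089 and other helicases at -0.18. In cells of 5000 to 10000 UMIs the family median was -0.23, the summed ratio -0.23 and the lower count 13, with MIF4G partners at -0.32, the exon junction complex at -0.093 and other helicases at -0.42. At 50 CPM or more, 4 of 25 genes lay lower, because fewer genes are counted, and the Ddx6 partners had a median of 0.094. The cause of the other moves was not tested.

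Thinned, the share of cells with a UMI was smaller in sonKD for 33 genes. Without thinning it was larger in sonKD for 31 of them, all but Ddx49 and Ddx56. For 16 of the 31 the interval of the thinned difference excludes 0, and their differences without thinning were 3.81 percentage points for Dhx9, 2.42 for Ddx27, 4.46 for Ddx54, 1.37 for Ddx55, 3.19 for Dhx37, 2.60 for Ddx39, 8.05 for Ddx6, 8.73 for Ddx10, 10.3 for Ddx42, 0.781 for Ddx5, 1.05 for Ddx41, 4.29 for Ddx46, 7.02 for Ddx23, 0.927 for Ddx39b, 0.432 for Ddx11 and 2.05 for Ddx3x. Depth limits the shallow strata most, where the intervals of single genes are wide.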
